A study of Mus musculus with 3 samples.

Results

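The nuclear genes that encode subunits of the mitochondrial respiratory chain and of ATP synthase were followed in a YTHDF2 RNA immunoprecipitation sequencing (RIP-seq) experiment on mouse embryonic stem cells (ESCs). Membership was defined by gene symbol. The set took the numbered Nduf genes, all Uqcr and Atp5 genes, Sdha to Sdhd, Cyc1, and the Cox genes numbered from Cox4 to Cox8, without names that end in -ps. This gave 91 of the 49997 genes in the table, of which 88 had enough reads to be tested. The cells were E14 ESCs carrying a doxycycline (Dox)-inducible Dux transgene and a tdTomato reporter driven by the Mervl promoter, and all were treated with Dox for 24 h. DUX is a transcription factor that moves a share of ESCs toward a state resembling the 2-cell embryo. There was 1 input library and there were 2 libraries of RNA recovered with an anti-YTHDF2 antibody (IP), so both groups carry the same transgenes and the same treatment, and no untreated sample was compared. No control-antibody IP was compared, so binding by YTHDF2 and any other difference between IP and input RNA cannot be told apart.

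Complexes I to IV pass electrons from NADH and succinate to oxygen, complexes I, III and IV pump protons across the inner mitochondrial membrane, and complex V (ATP synthase) uses the resulting gradient to make ATP. Most subunits are encoded in the nucleus, translated in the cytosol and imported, while a small hydrophobic core is encoded by mitochondrial DNA, so the products of both genomes have to be assembled together. YTHDF2 is a cytoplasmic protein that recognises N6-methyladenosine (m6A) in RNA and recruits factors that degrade the transcript. The comparison of IP with input asks which of these transcripts were recovered with YTHDF2 more or less than their abundance in total RNA would give.

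The libraries held 36986994 counts for the input and 35259827 and 35888743 for IP replicates 1 and 2, and the coefficient of variation between the IP libraries was 7.33%. With a single input library, the error of every fold change below rests on the spread of the 2 IP libraries alone, and the labels do not say whether these came from separate cultures. All 10 ESC markers examined were present at 273 to 1889 CPM (counts scaled to library size) in the input, where 7 fibroblast markers summed to 30.5 CPM, nearly all of it Thy1, with Dcn and Col3a1 at 0. A group of 8 heart and skeletal muscle markers summed to 2.94 CPM in the input and to 7.68 and 7.59 CPM in the IP libraries, with Ckm at 0. Their part in the results was not tested.

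The set as a whole was recovered slightly less in the IP than in the input. The median log2 fold change of the 88 tested members was −0.44, with quartiles of −0.74 and −0.14, beside 0.01 over all 19601 tested genes. Of these members, 70 lay below 0 and 18 above. A gene was called enriched or depleted at an adjusted p-value under 0.05 with a fold change over 2. By that rule 1 member was enriched (1.14%) where 15.0% of all tested genes were, and 9 were depleted (10.2%) where the share among all genes was 13%. Counting every change with an adjusted p-value under 0.05 whatever its size, 60 members were lower in the IP (68.2%, against 28.9% of all genes), 12 were higher (13.6%, against 28.4%) and 16 did not pass. A call at any fold depends on depth, and among genes averaging 100 counts or more, 59 of 82 members were lower (72.0%, against 39.0% of 12620 genes) and 12 were higher (14.6%, against 37.4%). These calls rest on the narrow spread of the IP libraries, since with a fixed dispersion of 0.1 only 5 members were lower and 1 higher at any fold change. When the trend of the fold change on the number of exons per kilobase (exon density) over all tested genes was removed, a setting chosen after the data were seen, the members' median moved from −0.44 to −0.16 and the calls became 4 enriched and 5 depleted. Of the 72 members that passed at any fold change, the log2 value of 44 moved by over 1.5 times in that setting and 8 changed sign, and removing the trend on GC content moved 34 and turned 8.

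The shifts were mostly small and alike in both IP libraries. Among the members, 77 of 88 (87.5%) lay within a log2 fold change of 1 in either direction, compared with 61.7% of all tested genes. Among genes averaging 100 counts or more, these shares were 89.0% and 68.6%. The medians over all tested members were −0.46 in IP replicate 1 and −0.44 in IP replicate 2, and 86 of the 88 members (97.7%) had the same sign in both. Both ratios share the single input, and 89.5% of all tested genes had the same sign too, or 94.9% of those averaging 100 counts or more. The 6 members whose IP libraries differed by more than 0.3 on the log2 scale were Atp5e and the low-count genes Ndufb4b, Ndufb4c, Cox8c, Cox4i2 and Ndufa4l2, as the plot of the members by complex shows.

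**Figure D1:**
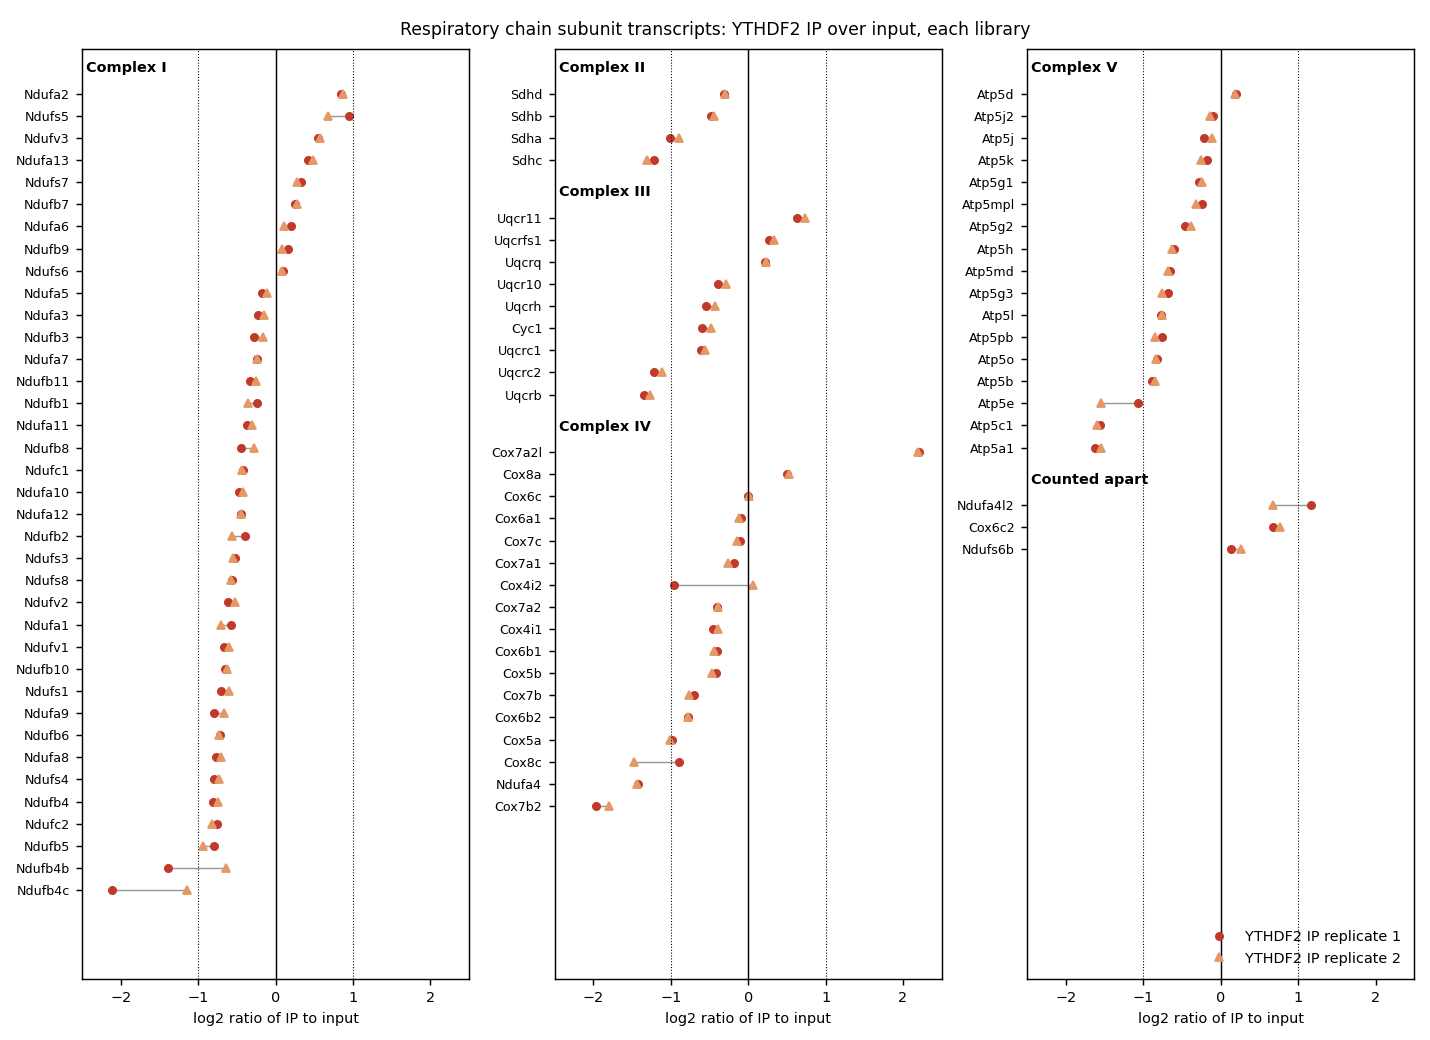
Log2 ratio of each YTHDF2 IP library to the input for the tested members, sorted within each complex, with 1 member not shown. Red circles are IP replicate 1 and orange triangles IP replicate 2, the solid line marks no difference and the dotted lines a log2 ratio of 1 in either direction. Points sit mostly between −1 and 0, and Cox7a2l stands alone at 2.21 and 2.20.

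**Figure D2:**
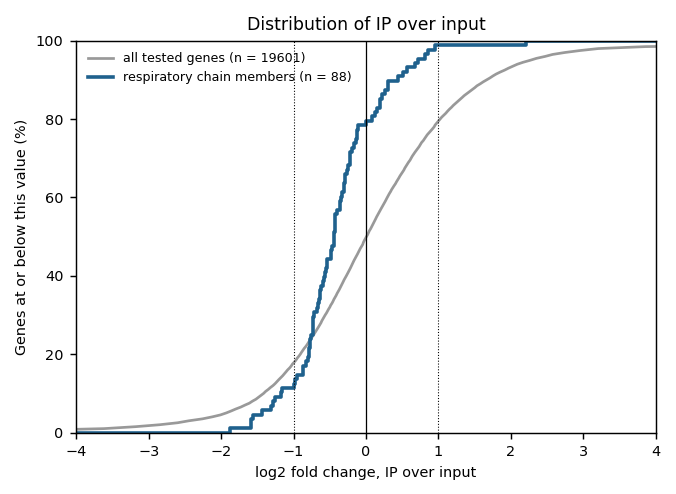
Percentage of genes at or below each log2 fold change of IP over input, for the 88 tested members (blue) and all 19601 tested genes (grey, cut at −4 and 4). The blue curve is steeper and crosses its midpoint at −0.44, while the grey curve does so near 0.

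Cox7a2l was the exception of the set. It encodes a relative of the COX7A subunits that acts as an assembly factor joining complexes III and IV into supercomplexes, and it lies on the minus strand at chr17:83501917-83514333 (GRCm38). By its name it was counted with complex IV, and it was the only member called enriched in the main analysis. The input held 1971 counts of it and the 2 IP libraries held 9302 and 9357. It was thus 4.60-fold higher in the IP (log2 2.20 ± 0.069 SE, adjusted p = 1.16e-25), and both IP libraries lay far above the input. Over all tested genes, 94.5% lay at or below a log2 fold change of 2.17 and 95.0% at or below 2.26. Across the alternative settings the log2 fold change of Cox7a2l ranged from 2.16 to 2.35, with an adjusted p of at most 0.00677.

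The COX7A relatives did not share this recovery. Cox7a2, the isoform found in most tissues, had 2345 input counts against 1816 and 1851 in the IP libraries (log2 −0.39 ± 0.088 SE, adjusted p = 0.000179). Cox7a1, the heart and muscle isoform, had 538, 481 and 466 counts in the same order and did not pass the test (log2 −0.22 ± 0.16 SE, adjusted p = 0.227). Levels of different genes were compared per exonic length, as TPM (counts scaled by exonic length and library size). The ratio of Cox7a2l to Cox7a2 on that scale was 1.07 in the input against 6.50 and 6.41 after IP, and the 95% intervals of the fold changes of these genes did not overlap. In Cox7a2, up to 918 of 1458 exonic bases overlap Tmem30a or Gm51685, whose shared reads were left out of the counts, so its level may be understated in all libraries.

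Sequences of the COX7A relatives are shown around the motif GGAC, a common core of m6A sites, because these genes differ so clearly in recovery. The motif was searched on the sense strand of the merged exons, and each line gives 20 bases of GRCm38 from 5′ to 3′ with the motif in capitals. Cox7a2l held 6 matches, or 5.22 per kilobase, of which 2 were coding and 4 lay after the stop codon, all of them in its last exon of 821 bases. Cox7a2 held 4 matches, or 2.74 per kilobase, of which 1 was coding, 1 lay after the stop codon and 2 lay in exons of a predicted transcript. Cox7a1 also held 4 matches, or 10.9 per kilobase, a higher density than that of Cox7a2l, although its fold change did not pass the test. Its matches were 1 before the start codon, 1 coding and 2 after the stop codon. The matches of Cox7a2l begin at chr17:83502674-83502693 and end at chr17:83501943-83501962, the coding match of Cox7a2 is at chr9:79758546-79758565, and that of Cox7a1 at chr7:30185308-30185327.
Cox7a2l coding match 1: gctttaccGGACcaccatgg
Cox7a2l coding match 2: actgggagGGACcatctact
Cox7a2l match 3 after the stop codon: cctgtggaGGACtggttcac
Cox7a2l match 4 after the stop codon: gggcctcgGGACtcaggcgg
Cox7a2l match 5 after the stop codon: aagccagcGGACaggtggtg
Cox7a2l match 6 after the stop codon: gattgaccGGACtgcggaat
Cox7a2 coding match: tgcccagaGGACcatcagca
Cox7a2 match after the stop codon: cgctcgatGGACcaggaatc
Cox7a1 coding match: gggggaatGGACaacgtcct

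A match is a run of letters and not a measured m6A site, and the motif is close to universal. It occurred in 85 of the 88 tested members (96.6%) and in 99.5% of the 15197 tested protein-coding genes with a sequence. Among the members the number of matches had no visible relation with recovery (Spearman rho 0.0049 across 88 genes, which share the same 3 libraries), and the number per kilobase a weak one (0.165). Over all tested protein-coding genes these rho values were 0.118 and 0.279.

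Complex V held the most abundant transcript of the set and 3 of its 9 depleted members, all in the catalytic F1 head. Atp5a1, the alpha subunit, had 46058 input counts against 15169 and 16368 after IP (3.00-fold lower, log2 −1.59 ± 0.049 SE, adjusted p = 1.73e-25). Atp5c1, the gamma subunit of the central rotor, had 9768 counts in the input against 3364 and 3327 (log2 −1.59 ± 0.061 SE, adjusted p = 5.02e-23). In both genes the IP libraries lay close together and well below the input. Atp5e, the epsilon subunit, was depleted with a wider spread, at 2089 counts against 1017 and 740 (log2 −1.29 ± 0.14 SE, adjusted p = 8.64e-07), and was not called with the fixed dispersion (adjusted p = 0.0839) or with the exon density trend removed (log2 −0.85).

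The F1 head was not uniform. Atp5b, the catalytic beta subunit and the most abundant member at 2760 TPM, had 93188 counts in the input against 51162 and 53687. This was 1.83-fold lower (log2 −0.87 ± 0.043 SE, adjusted p = 1.52e-19) and did not reach the fold threshold. Across the alternative settings its log2 fold change ranged from −1.01, with the GC trend removed and past that threshold, to −0.61. Atp5d, the delta subunit, was the only member of complex V that was higher, at 6031 counts against 7076 and 7102 (log2 0.19 ± 0.061 SE, adjusted p = 0.00686). Its sign turned to −0.32 when the trend on GC content was removed. The median of the 5 F1 genes was −1.29, the value of Atp5e, which was at −0.85 with the exon density trend removed. The 4 genes of the peripheral stalk, which holds the head still, were all lower, with a median of −0.71, and the 3 genes of the rotating c ring were lower with a median of −0.42. The c ring genes encode the same mature protein. Atp5g3 had 14411 counts in the input against 9138 and 8819 (log2 −0.72), while Atp5g1 had 9402 against 7875 and 8211 (log2 −0.27), and their 95% intervals did not overlap. With the GC trend removed they were at −0.63 and −0.58, so this difference was not kept, and with the exon density trend removed they were at −0.67 and −0.043. Atp5g2 lay between them at −0.42, with 8082 counts against 5971 and 6423, and its interval overlapped that of Atp5g1. Its sign turned to 0.047 with the exon density trend removed. Of the 5 small membrane subunits, 3 were lower and 2 did not pass. Over all 17 genes of complex V, the median was −0.67 (−0.27 with the exon density trend removed), with 14 lower and 1 higher.

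Complex I, the NADH dehydrogenase, contributed 38 tested members, of which 26 were lower and 6 higher. Its median was −0.45 (−0.23 with the exon density trend removed). The nuclear-encoded core subunits include those that carry the flavin and the iron-sulfur clusters. Among them, Ndufs1, Ndufs3, Ndufs8, Ndufv1 and Ndufv2 had log2 fold changes between −0.66 and −0.54, and all of these were lower. Ndufs7, next to the ubiquinone site, was higher, with 3005 input counts and 3855 and 3771 IP counts (log2 0.30 ± 0.073 SE, adjusted p = 0.000479). Removing the trend on GC content turned Ndufs7 to −0.16 and spread the others from −1.04 (Ndufs8) to −0.098 (Ndufv2), so that Ndufs7 no longer stood apart, while with the exon density trend removed Ndufs7 was at 0.74 and Ndufs3 at −0.094. A transfer RNA gene overlaps 74 of its exonic bases.

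The 31 accessory subunits of complex I spread more widely, from −1.56 to 0.86, with 20 lower, 5 higher and 6 that did not pass. Ndufa2, a small accessory subunit of the NADH-binding arm, was the highest, at 3116 counts in the input against 5702 and 5892 (1.81-fold higher, log2 0.86 ± 0.068 SE, adjusted p = 9.25e-14). The others that were higher were Ndufs5 (log2 0.82), Ndufv3 (0.56), Ndufa13 (0.45) and Ndufb7 (0.26). Ndufa13 and Ndufb7, at 60.1% and 59.7% GC, were more GC-rich than Atp5d (58.5%), whose sign turned with the GC trend removed. Their own values in that setting are not given. Ndufs5 had only 355 counts in the input against 699 and 589. Among the better expressed accessory subunits, Ndufb5 in the membrane arm was the lowest, with 3962 counts against 2322 and 2148 (log2 −0.87 ± 0.077 SE, adjusted p = 2.31e-12), or −0.56 with the exon density trend removed. The single depleted gene, Ndufb4c, is a sparse copy of Ndufb4 with 112 counts in the input against 26 and 52 after IP (log2 −1.56 ± 0.43 SE, adjusted p = 0.00192), and it was not called with DESeq2 (adjusted p = 0.0733). Ndufb4 itself had 3850 counts against 2244 and 2368 (log2 −0.78). Reads that fit both copies were left out of the counts.

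All 4 genes of complex II, the succinate dehydrogenase that also serves the citric acid cycle, were lower. Sdhc, a membrane anchor, was depleted, with 6184 input counts against 2717 and 2581 in the IP libraries (2.40-fold lower, log2 −1.26 ± 0.069 SE, adjusted p = 1.99e-18), though not with the fixed dispersion (adjusted p = 0.0906). The flavoprotein gene Sdha followed at 12279 counts against 6221 and 6852 (log2 −0.95 ± 0.059 SE, adjusted p = 1.44e-16). The iron-sulfur subunit gene Sdhb had 5163 counts against 3778 and 3917 (log2 −0.46, or −0.73 with the GC trend and −0.018 with the exon density trend removed). Sdhd, the other membrane anchor, had 5362 against 4409 and 4499 (log2 −0.31). Sdhc and Sdhd encode partners in the same membrane dimer, and the 95% intervals of their fold changes, −1.40 to −1.12 and −0.44 to −0.18, did not overlap.

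Complex III passes electrons from ubiquinol to cytochrome c, and 6 of its 9 members were lower while 3 were higher. Its median was −0.49, and −0.10 with the exon density trend removed. Uqcrb, a ubiquinone-binding subunit, had 8040 counts in the input against 3237 and 3452 (2.47-fold lower, log2 −1.31 ± 0.063 SE, adjusted p = 5.83e-20). The core protein gene Uqcrc2 had 5448 counts against 2399 and 2597 (2.24-fold lower, log2 −1.17 ± 0.071 SE, adjusted p = 4.79e-17), and 503 of its exonic bases overlap Pdzd9 on the other strand. Neither was called with the fixed dispersion (adjusted p = 0.078 and 0.123), with the exon density trend removed (log2 −0.87 and −0.72) or with the GC trend removed (log2 −0.69 and −0.81). The partner of Uqcrc2, Uqcrc1, was lower by less, with 13231 counts against 8819 and 9269 (log2 −0.59), but this order turned with the GC trend removed (log2 −1.01 for Uqcrc1), and with the exon density trend removed Uqcrc1 was at −0.11. The electron carriers of the complex went opposite ways. Cyc1, cytochrome c1, had 11033 counts against 7423 and 8168 (log2 −0.54 ± 0.059 SE, or −0.88 with the GC trend removed), while Uqcrfs1, the Rieske iron-sulfur protein, had 3980 against 4868 and 5195 (log2 0.30 ± 0.068 SE, adjusted p = 0.000242), or 0.052 with the exon density trend removed. Uqcr11, a small peripheral subunit, was the highest of the complex, at 2889 counts against 4551 and 4971 (log2 0.68 ± 0.073 SE, adjusted p = 2.33e-10), a value that moved to 0.11 with the GC trend removed and to 1.08, past the fold threshold, with the exon density trend removed.

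Complex IV, cytochrome c oxidase, had the widest range, since it holds both Cox7a2l and the lowest member, Cox7b2. Of its 17 tested genes, 10 were lower, 2 were higher and 5 did not pass, with a median of −0.42 (−0.025 with the exon density trend removed). Ndufa4, first assigned to complex I and now placed here, had 6528 input counts and 2483 and 2484 IP counts (2.70-fold lower, log2 −1.43 ± 0.067 SE, adjusted p = 1.97e-20), and was just short of the fold threshold with the exon density trend removed (log2 −0.94). Cox5a was at the edge of the threshold, with 11539 counts against 5950 and 5946 (1.99-fold lower, log2 −0.996 ± 0.057 SE), and its partner Cox5b was lower by less, at 10956 counts against 8405 and 8197 (log2 −0.44, or −0.78 with the GC trend and −0.025 with the exon density trend removed). Cox8a was the other gene that was higher, at 8639 counts against 12479 and 12912 (log2 0.52 ± 0.056 SE, adjusted p = 3.63e-10), a value that moved to −0.03 when the trend on GC content was removed. Cox6c differed by less than its error, with 7803 counts against 7936 and 8102 (log2 fold change −0.00052 ± 0.059 SE). Cox6a1 had 17346 input counts against 16641 and 16460, and it did not pass (adjusted p = 0.0759).

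Several subunits of complex IV have tissue-restricted paralogs, most of which were sparse in these cells. Cox7b2, the testis relative of Cox7b, had 384 counts in the input against 100 and 114 after IP (3.69-fold lower, log2 −1.88 ± 0.24 SE, adjusted p = 1.33e-08), a value that moved to −1.14 with the GC trend removed. Cox7b had 8306 against 5197 and 5072 (log2 −0.73, or −0.19 with the GC trend removed), so the Cox7b2 to Cox7b ratio in TPM went from 0.0852 in the input to 0.0355 and 0.0414. Cox6b2, another testis isoform, was well expressed, with 2938 counts against 1746 and 1765 (log2 −0.78, or −0.41 with the exon density trend removed), and its ratio to Cox6b1 fell from 0.460 in the input to 0.355 and 0.362. With the GC trend removed Cox6b2 was at −1.14, past the fold threshold. Cox6b1 itself had 4878 counts against 3759 and 3718 (log2 −0.42, or 0.098 with the exon density trend removed). For both pairs the 95% intervals of the fold changes did not overlap. The major gene Cox4i1 had 30057 counts against 22318 and 23813 (log2 −0.42, or −0.88 with the GC trend and −0.048 with the exon density trend removed), whereas Cox4i2 had 50, 26 and 54 counts and the IP libraries lay on both sides of the input (adjusted p = 0.582). Cox8c had 44 counts against 24 and 16 and did not pass (adjusted p = 0.12). Not tested were Cox6a2, with 10, 2 and 8 counts, and Cox8b, at 0 counts in all libraries, which allows up to 0.0811 CPM in the input (3 counts).

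**Figure D3:**
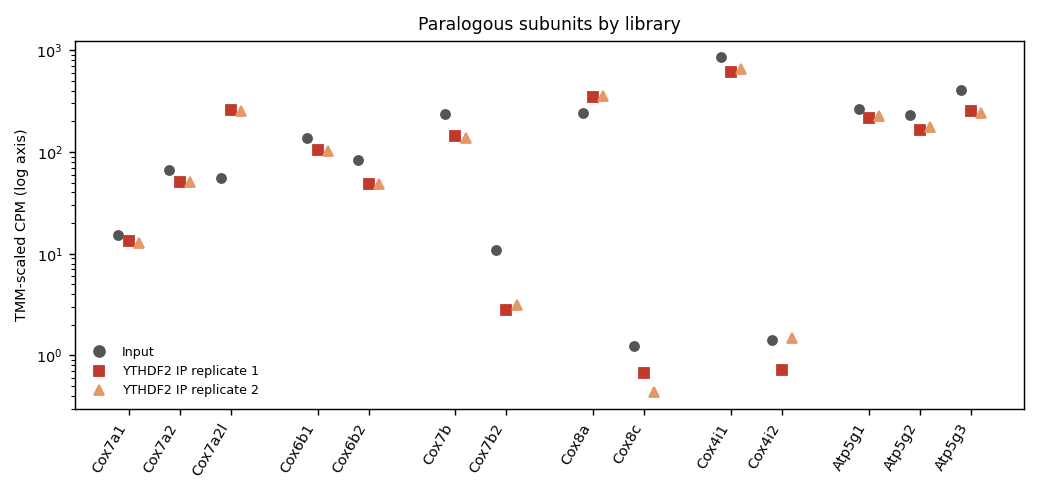
TMM-scaled CPM, on a log axis, of paralogous subunits of complexes IV and V in the input (grey circles) and in YTHDF2 IP replicates 1 (red squares) and 2 (orange triangles), with Cox8b and Cox6a2 left out. Cox7a2l is above its input level in both IP libraries, and Cox7b2 is below its own.

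Exons of 18 tested members overlap those of another gene, among them Atp5a1 (118 bases, with Haus1), Ndufa2 (69 bases, with Tmco6) and Ndufa13 (375 bases, with Tssk6). The median of these 18 was −0.47 and that of the other 70 was −0.44.

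A few rows named like subunits were counted apart from the complexes. These were the pseudogenes Ndufs6b and Cox6c2, the transcribed pseudogene Ndufa11b, which had 0 counts in all libraries, and Ndufa4l2, a hypoxia-induced relative of Ndufa4. Cox6c2 had 75 input counts against 122 and 132 in the IP libraries (adjusted p = 0.0722). For Ndufs6b the counts were 69, 77 and 86 (adjusted p = 0.693). Ndufa4l2 had 29 counts against 67 and 48 and did not pass either (log2 0.95 ± 0.52 SE, adjusted p = 0.121).

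The share of all counts taken by each complex weights the members by abundance. The 91 members together made up 1.63% of input counts (95% Wilson interval 1.62 to 1.63) and 1.21% and 1.23% of the IP libraries. Complex V went from 0.678% to 0.409% and 0.414%, and complex II from 0.0784% to 0.0486% and 0.0497%. Complex III went from 0.149% to 0.116% and 0.122%, complex I from 0.375% to 0.324% and 0.329%, and complex IV from 0.345% to 0.316% and 0.314%. As ratios of IP to input, these were 0.604 and 0.610 for complex V, 0.620 and 0.635 for complex II, 0.778 and 0.818 for complex III, 0.865 and 0.878 for complex I, and 0.915 and 0.911 for complex IV. The intervals of input and IP did not overlap for any complex, and they cover counting error only. Atp5a1 and Atp5b alone made up 23.1% of the members' counts in the input but 15.5% and 15.9% after IP.

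**Figure D4:**
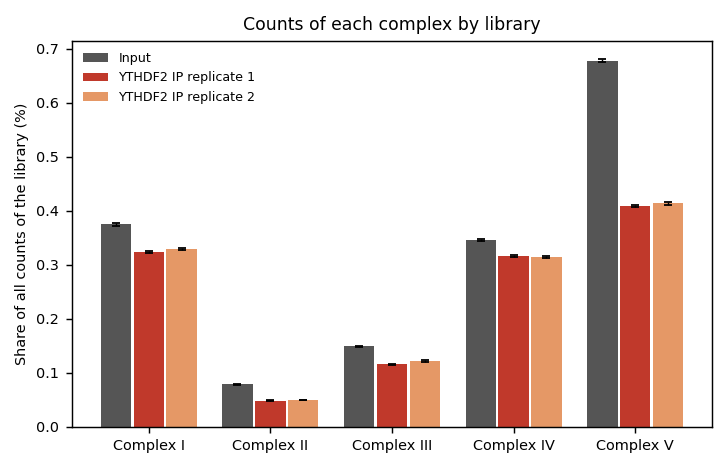
Share of all counts of each library that fell in the members of complexes I to V, for the input (grey) and YTHDF2 IP replicates 1 (red) and 2 (orange), with 95% Wilson intervals that cover counting error only. Complex V shows the largest difference, at 0.678% for the input against 0.409% and 0.414%.

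The members shared a compact gene structure that their choice by name did not use. Their merged exons had a median length of 783.5 bases, compared with 3576 bases over the tested protein-coding genes, and all 88 were shorter than that. They had a median of 5.56 exons per kilobase, compared with 2.87, and 79 of 88 lay above the latter. GC content differed little, with a median of 51.9% compared with 50.4%. Within the set, members with higher GC content had higher fold changes (Spearman rho 0.431 across the 88 genes, given as a description since the genes share libraries). The 44 members with lower GC content had a median log2 fold change of −0.73, with 4 above 0, and the 44 with higher GC content had a median of −0.28, with 14 above 0. The same relation over all tested protein-coding genes had a rho of 0.362. Cox7b2, at 36.6% GC, and Uqcrb, at 40.1%, had the lowest GC content of the set and were depleted. Cox7a2l, at 49.4%, was among those with lower GC content and did not follow the relation. Exons per kilobase had little relation with recovery within the set (rho −0.109), whereas over all protein-coding genes rho was −0.28. Exonic length had a rho of −0.157 within the set.

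**Figure D5:**
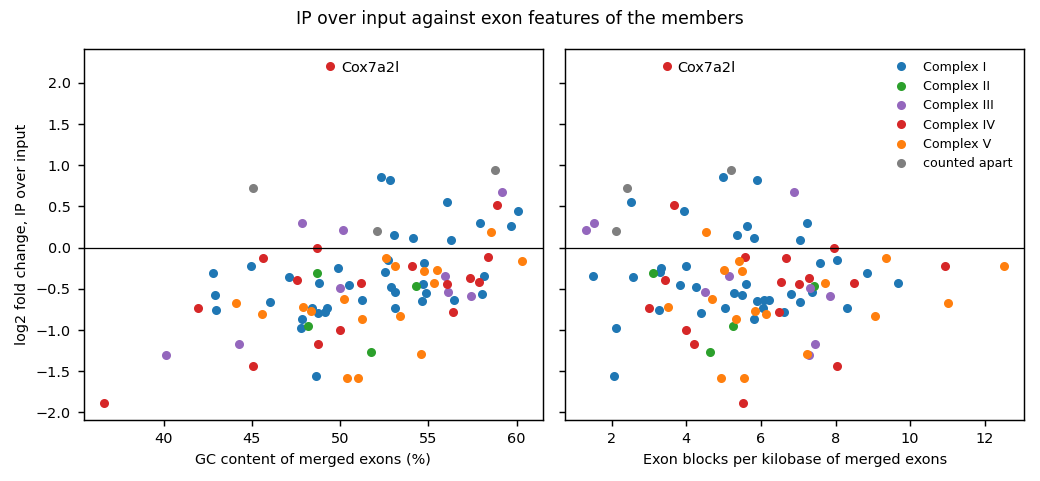
Log2 fold change of IP over input against GC content (left, percent) and exons per kilobase (right) of the merged exons, 1 point for each of the 88 tested members, coloured by complex, with pseudogenes and Ndufa4l2 in grey. Higher GC content goes with a higher fold change (rho 0.431) and exons per kilobase show little relation with it (rho −0.109), while Cox7a2l lies apart in both panels.

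The other genes of oxidative metabolism were read from the same test, in which 28.9% of all genes were lower, 28.4% higher, 13% depleted and 15.0% enriched. Cytochrome c, the mobile carrier between complexes III and IV, is encoded by Cycs, which was depleted with 9030 counts in the input against 4106 and 4015 (log2 −1.19 ± 0.061 SE, adjusted p = 2.68e-19). It was not called with the fixed dispersion or with the GC trend removed. Its testis form Cyct (log2 −0.46) and the acyl carrier subunit gene Ndufab1 (log2 −0.74) were lower too. All 13 citric acid cycle genes were lower, with a median of −1.07, and 7 were depleted, among them Idh3a (log2 −2.12) and the citrate synthase gene Cs (log2 −1.51). With the exon density trend removed, 3 of them were depleted and the median was −0.64. Of 6 tested genes for other enzymes that feed electrons to ubiquinone, 5 were lower, including Etfdh (log2 −1.61) and Etfa (log2 −1.30). The 13 genes of coenzyme Q synthesis were mixed, with 5 higher, 3 lower and a median of 0.16, and Pdss1 and Pdss2, which encode the subunits of the same enzyme, were called in opposite directions at −1.41 and 1.34. The median of this list was 0.043 with the GC trend removed and 0.077 with the length trend removed. It was 0.29 with the exon density trend removed and 0.31 on the TPM scale. Among 12 nuclear regulators of respiratory genes, 8 were higher and 1 was lower, with a median of 0.22. Tfam, which packages mitochondrial DNA and takes part in its transcription, was at 0.84, and Nrf1, a transcription factor of respiratory genes, was at 0.74. The regulator that was lower was Gabpa (log2 −1.47). With the GC trend removed the median of the regulators moved to −0.0097, with 5 higher and 4 lower. In that setting 4 regulators were enriched and 0 depleted, against 0 enriched and 1 depleted in the main analysis. With the fixed dispersion, 2 citric acid cycle genes, 1 electron donor gene and 1 regulator were lower, and no gene of the coenzyme Q, citric acid cycle, electron donor or regulator lists was higher.

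The mitochondrially encoded partners of these subunits were at a small part of their input level in the IP. All 13 were depleted, and ND3 and ND4L had 0 counts in both IP libraries against 45 and 151 in the input. On the TMM scale, which differs from the shares of library totals given above, the 7 mitochondrial transcripts of complex I together were at 1.74% of their input level in the IP, whereas the nuclear-encoded members of that complex were at 81.6%. The values were 1.80% and 74.7% for complex III, 2.48% and 85.4% for complex IV, and 0.542% and 56.8% for complex V. In each of these complexes, the nuclear-encoded members as a group kept a far larger part of their input level than the mitochondrially encoded transcripts did.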

How the data were processed

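RIP-seq libraries of Dox-treated E14 mouse ESCs were used, 1 input and 2 YTHDF2 IP, grouped by title. The methods of the study describe an IP from cleared lysate, whereas the labels describe an IP of Trizol-extracted RNA. The processing notes name fastp 0.19.4, HISAT2 2.2.1 and DESeq2 1.40.2. The deposited values are raw counts per gene, which the authors made with featureCounts 2.0.3 over RefSeq exons of mm10. Per the file headers, mates were counted singly without regard to strand, so antisense overlaps share reads. By the tool's defaults, reads mapping to several places or genes were left out, which lowers counts of near-identical copies.

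Each of the 49997 symbols was found in RefSeq for GRCm38.p6, from which exon, GC and motif values were computed. Members listed on patch sequences too (Atp5a1, Uqcrc1, Ndufs3 and Ndufa7) were measured on the primary chromosome. Fits used edgeR 4.0.16 in R 4.3.3. Genes passing filterByExpr (19601) were scaled by TMM (0.957 for the input, 1.02 for each IP library) and tested with robust dispersions by the quasi-likelihood F test, with 1 residual degree of freedom per gene and Benjamini-Hochberg adjustment over all tested genes. Single-library ratios used an added count of 0.5. The floor was 3 counts. The test was also run on simulated data in which every library, the input included, had the fitted common dispersion. Such data cannot show the effect of an input of unknown spread.

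Members and lists were chosen with earlier results of these data known. Members named with counts were those called, the highest and lowest of each complex with a mean of at least 10 CPM, core subunits and paralogs, and 1 member is not reported individually here. Ndufb4, Ndufs5, Cox6c and the genes counted apart were named after their values were seen, as were the genes named from the other lists. Alternatives were DESeq2 1.42.0, other scalings, no filter, a fixed dispersion, halved counts, single IP libraries and removed trends on length and GC content. A trend on exon density and the exclusion of overlapping genes, and the settings run on the other lists, were added after seeing the data.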

Additional observations from a re-analysis of the deposited data

How the results depend on the processing

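The number of enriched members was 1, and the number depleted 9, also with RLE scaling, with library totals only, without a filter and with halved counts. With DESeq2 8 were depleted. The depleted count was 5 with a fixed dispersion of 0.1, where Atp5e, Sdhc, Uqcrb and Uqcrc2 were lost (adjusted p = 0.0839, 0.0906, 0.078 and 0.123), and 5 with the exon density trend removed, where Atp5e, Ndufa4, Uqcrb and Uqcrc2 fell short of the fold threshold and 4 members were enriched. On the TPM scale 2 members were enriched (Ndufa2 reached a log2 fold change of 1.00). From single IP libraries, where the fold alone was used and no test was possible, 1 to 2 were enriched and 11 depleted. At any fold change, 12 members were higher and 60 lower in the main analysis. The counts were 12 and 55 with DESeq2, 16 and 56 with library totals only, and 17 and 51 on the TPM scale. They were 18 and 54 with the exon density trend removed and 1 and 5 with the fixed dispersion. Removing the length trend gave 11 depleted members, with Cox5a (−1.07) and Sdha (−1.02) added. Removing the GC trend gave 13, with Uqcrb (−0.69) and Uqcrc2 (−0.81) no longer among them. Of the members named by rule, Atp5b (−1.01), Cox5a (−1.06), Cox6b2 (−1.14), Ndufs8 (−1.04) and Uqcrc1 (−1.01) were added. The cause of these changes was not tested.

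The members' median stayed below 0 under every setting. It was −0.35 with library totals only and −0.30 on the TPM scale, settings that raised the median of all genes by 0.0958 and 0.148. It was −0.42 without a filter, −0.59 with the GC trend removed and −0.16 with the exon density trend removed, and −0.46 to −0.44 from single IP libraries. Without members that overlap another gene it was −0.44, with 7 depleted. The number of members above 0 was 18 in the main analysis, 23 on the TPM scale and with the length trend removed, 14 with the GC trend removed and 32 with the exon density trend removed. Among the members named by rule, signs turned for Cox6a1 on the TPM scale (0.041), for Cox7a1 with the length trend removed (0.023), for Atp5d (−0.32), Cox8a (−0.030) and Ndufs7 (−0.16) with the GC trend removed, and with the exon density trend removed for Atp5g2 (0.047), Cox4i2 (0.073), Cox6a1 (0.18), Cox6b1 (0.098) and Cox7a1 (0.52), and for Cox4i2 without IP replicate 1 (0.061).

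No paired analysis was possible because only 1 input was sequenced, with no number to match to an IP replicate. With a single input library, the spread of the input is unknown. Counting both mates overstates the depth, and the sparse genes Cox8c and Cox4i2 were not resolved.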
